A study of Mus musculus with 16 samples.

Results

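A group of 64 genes lost most or all of their RNA in cultured TDMa melanoma cells that carried an Nlrc5-targeting guide. The genes were chosen by their normalised counts in TDMa culture: a mean of at least 20 with the scramble guide (sgScramble), and a mean with the Nlrc5 guide (sgNlrc5) of at most 1/6 of that. Of 13284 genes listed for TDMa culture, 11311 reached the sgScramble minimum and 91 of these, 0.805%, met both thresholds. Of the 91, 27 were dropped by the same rule, which leaves out named families such as Oas, Gbp, Ifit, Irgm, Cxcl and Slc and some single genes. The 64 members comprise 56 protein-coding genes by the annotation, and 7 are predicted genes without an assigned name. Only 15 had no read at all with sgNlrc5, 16 had 1 to 3 reads over both libraries, and 33 had more, so that "silenced" describes the first 31 members better than the rest.

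B16F10 is a mouse melanoma line that makes little MHC class I in culture. Nlrc5 encodes a transactivator that drives the class I genes from their promoters. The series title gives demethylation and activation of Nlrc5 as the subject, and the labels do not spell out what TDM and TDMa stand for. B16F10-TDM and B16F10-TDMa cells had been transduced with sgScramble or sgNlrc5 and grown in culture, with 2 libraries per guide in each line. Tumours of TDMa cells made up the last pair of groups, with 4 libraries per guide. Interferon-stimulated genes, a large family with antiviral roles, are switched on together by STAT and IRF transcription factors. The labels do not say whether a line and guide was 1 clone or a pool, whether replicates were separate cultures or animals, or what host strain and tumour age were used. The p-values therefore speak only of the variation among these libraries, which may be technical. Guide and transduced cell line cannot be told apart in any comparison.

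Nlrc5, the guide's target, was higher with sgNlrc5 in all 3 settings. Its mean normalised count was 17.8 against 68.0 in TDM culture (log2 change 1.91 ± 0.34, SE; limma adjusted p = 0.0118), 248 against 3144 in TDMa culture, and 577 against 3916 in TDMa tumours (log2 change 2.88 ± 0.28; limma adjusted p = 3.15e-05). Reads recovered over the listed genes ran from 12183889 to 16390886 per library. All 7 melanocyte lineage markers were listed in every table. The T cell list had none of its 11 markers listed in TDMa culture and 2, Cd3d and Lck, in TDM culture. Those 2 were not at trace level, with summed normalised counts of 581 to 664 with sgScramble and 661 to 699 with sgNlrc5.

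In TDMa culture both sgNlrc5 libraries lay below both sgScramble libraries for all 64 members. These values chose the members and are given as a description. The sgScramble mean reached 1242 normalised counts, with a median of 53.9. The most abundant member was Prkg2, a cGMP-dependent protein kinase, with 1255 and 1228 normalised counts with sgScramble and 101.2 and 87.2 with sgNlrc5. Itpripl2 stood at 913 and 883 against 11.2 and 7.75, a 94.5-fold lower mean. The next in abundance with an assigned name was Adh7, an alcohol dehydrogenase that acts on retinol, with 772 and 763 against 117 and 113. Acsbg1, an acyl-CoA synthetase, had 576 and 611 against 64.1 and 62.0. Pkd2l1, a cation channel of the TRP family, had 569 and 520 against 42.7 and 39.7, and Nnmt, which methylates nicotinamide, had 284 and 276 against 46.1 and 32.0. All 6 had more than 3 sgNlrc5 reads.

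**Figure D1:**
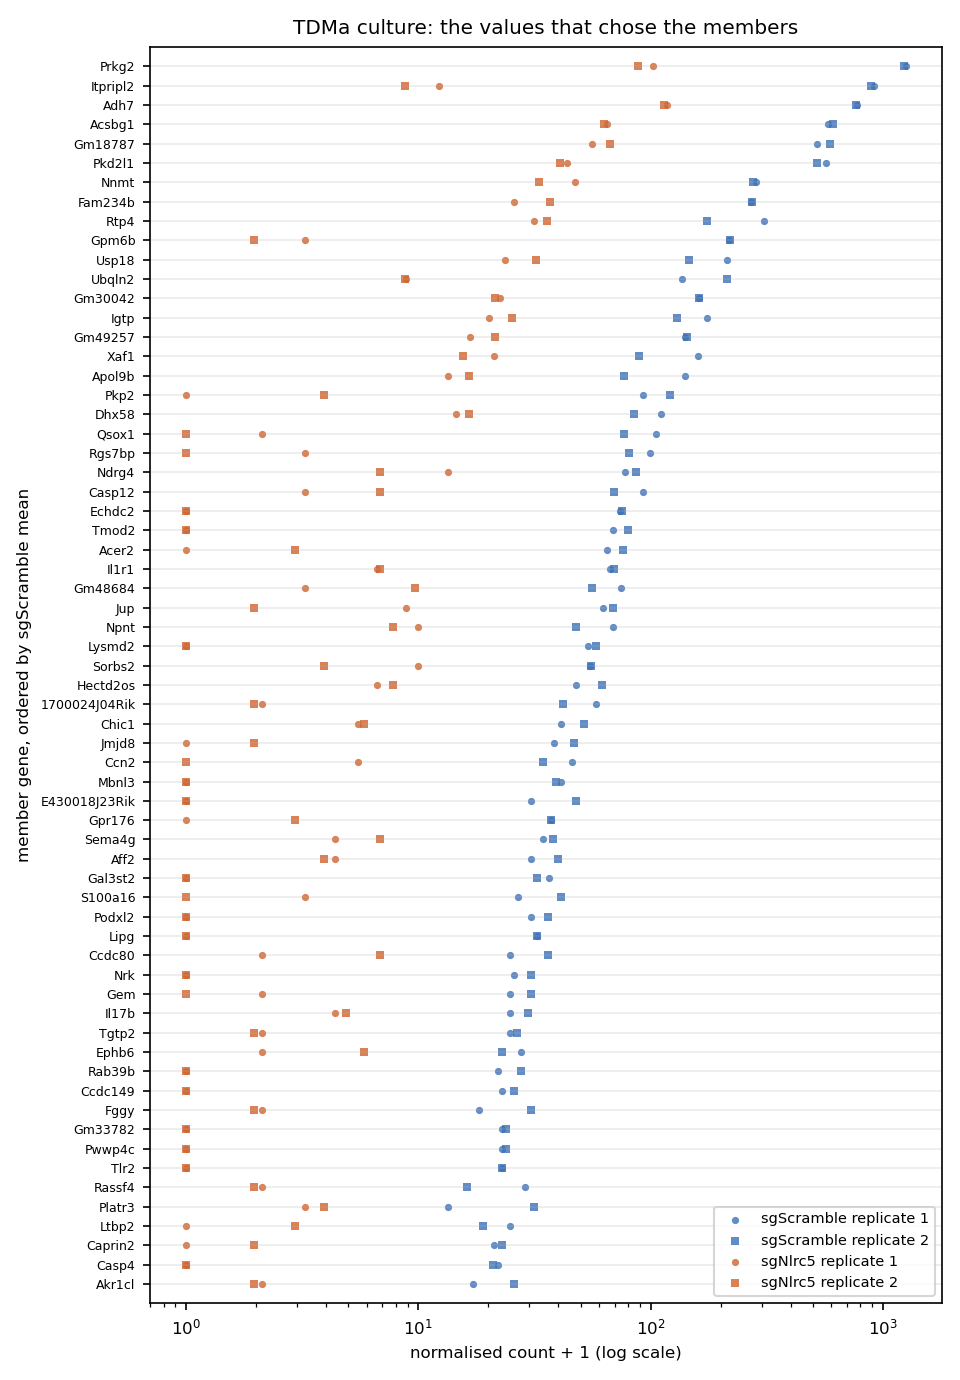
Normalised count plus 1 on a log axis for each of the 64 members (rows) in the 4 TDMa culture libraries; circles are replicate 1, squares replicate 2, blue sgScramble and orange sgNlrc5. The orange points lie left of the blue points in every row, and the 15 rows with both orange points at 1 are the members with no sgNlrc5 read.

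The 31 members with at most 3 sgNlrc5 reads were of mixed function. Gpm6b, a membrane glycoprotein of the proteolipid family, had 217 and 218 normalised counts with sgScramble and 2.25 and 0.969 with sgNlrc5. Those are 3 reads against 456, a ratio of 0.0074 (95% counting interval 0.00148 to 0.0211). Pkp2, a desmosomal plaque protein, had 91.8 and 120 against 0 and 2.91. Tmod2, which caps the pointed ends of actin filaments, had 67.9 and 79.0 against 0 in both, which is at least 47.1-fold lower when 3 reads over the group are taken as the limit of a count of 0. The adjacent gene Lysmd2 had 52.6 and 57.1 against 0 in both, at least 35.1-fold lower. Echdc2, which belongs to the enoyl-CoA hydratase family, had 72.7 and 74.2 against 0 in both, at least 47.1-fold lower.

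Qsox1, a secreted enzyme that forms disulfide bonds, had 104 and 76.1 against 1.12 and 0. Rgs7bp, a membrane anchor for RGS proteins of the R7 family, had 98.5 and 79.9 against 2.25 and 0, and Acer2, a ceramidase, had 64.1 and 75.2 against 0 and 1.94. Mbnl3, a muscleblind splicing regulator, Podxl2, a sialomucin, Gal3st2, a sulfotransferase of a family with close copies whose reads may be split, and Lipg, a secreted lipase, had 0 reads in both sgNlrc5 libraries and sgScramble means of 39.1, 32.4, 33.4 and 31.5. Jmjd8, S100a16 and Gpr176, an orphan G protein-coupled receptor, had 1 or 2 sgNlrc5 reads with sgScramble means of 41.5, 32.9 and 36.3. Jup, the junction protein plakoglobin, kept 8 reads, at 61.2 and 67.5 against 7.87 and 0.969.

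On the interferon lists stand 8 of the members. Rtp4, an interferon-stimulated gene for a receptor transporter, had 306 and 173 normalised counts with sgScramble and 30.4 and 34.9 with sgNlrc5. Usp18, the protease that removes ISG15 and damps receptor signalling, went from 212 and 145 to 22.5 and 31.0, and Igtp, an immunity-related GTPase, from 173 and 128 to 19.11 and 24.2. The others were Xaf1, Apol9b, Dhx58 (the RNA sensor LGP2), Tgtp2 (another immunity-related GTPase) and Casp4 (the inflammatory caspase-11 of mouse). Casp4 had no sgNlrc5 read and Tgtp2 had 2. The median log2 ratio was -2.80 for these 8 and -3.80 for the 56 members off the lists. The type I interferon list as a whole was low in the same contrast: 21 of its 29 genes above the minimum were at or under 1/2 of the sgScramble mean, against 3.54% of all 11311 genes. Other lists with smaller numbers of genes also exceeded that share, with 5 of 13 for the melanoma invasive state, 4 of 13 for neural and glial genes, 3 of 9 for interferon gamma, 4 of 17 for cell junctions, 3 of 15 for actin and contractile genes, 2 of 9 for NF-kB targets, 2 of 15 for secreted matrix and 1 of 4 for germline genes. Members are among these genes and are low by the rule. They make up all 3 of interferon gamma (Casp4, Igtp and Tgtp2), 5 of the 21 of type I and 2 of the 4 of cell junctions. The invasive, neural, actin and matrix counts hold 1 member each, and the NF-kB count 0. The 1 germline gene met both thresholds and was dropped by the rule. None of the 18 melanocyte lineage genes was at or under 1/2. Both sgNlrc5 libraries lay above both sgScramble libraries for 16 of those 18, and for 3817 of all 11311 genes. Since the families Oas, Gbp, Ifit and Irgm were dropped by the rule, the members hold only some of the interferon genes that met the thresholds. Reads of Apol9b and Tgtp2 may be shared with their close copies Apol9a and Tgtp1.

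The threshold passed through a continuum. Just inside it were Dhx58, Usp18 and Adh7, at ratios of 0.150 each, and just outside were Arsg at 0.167, Olfr56 at 0.169 and H2bc21 at 0.171.

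Members were spread over the genome, and 3 pairs of them were nearest listed neighbours: Tmod2 with Lysmd2, Casp12 with Casp4, and a pair of predicted genes. The members with at most 3 sgNlrc5 reads had 55 distinct neighbours at or above 20 normalised counts, 52 of them not members, and 5 of the 52 (9.62%) were at or under 1/2 of the sgScramble level, against 3.54% of all genes above the minimum. The median log2 ratio of the 52 was -0.04. The 5 low neighbours, with sgScramble and sgNlrc5 means, were Thbs1 (228.5 and 60.6), Sod3 (675 and 127), Ifi47 (227 and 68.3), Olfr56 (39.1 and 6.61) and Zfp747 (54.85 and 26.09). Not among the 52 was Irgm2 beside Igtp, at 244 and 38.8, which met both thresholds and was dropped by the rule. Pwwp4d beside Pwwp4c, also not among them, had 19.55 and 0, just under the minimum of 20. Other neighbours were not low: Echdc2, without a read, lay between Scp2 (log2 ratio 0.11) and Zyg11b (0.13), and Pkp2 between Spidr (0.14) and Yars2 (-0.10). Chromosome X carried 8 members of 357 genes above the minimum (2.24%), against 56 of 10920 on the autosomes (0.513%). Before families were dropped the shares meeting both thresholds were 3.08% and 0.733%. The chromosome count was made after the values were seen and has no test. The X-linked members, several of them outside the rule for named genes, were Gpm6b, Ubqln2, Chic1, Mbnl3, Aff2, Nrk, Rab39b and Pwwp4c. None of the 8 was listed in TDM culture, and 5 were listed in tumours.

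In TDM culture no member passed the test with the same guide. A gene was listed there only with 20 or more reads over the 4 libraries, which 34 of the 64 had. Of the 32 with a mean of at least 10, 0 passed limma at an adjusted p of 0.05, where 0.517% of all 11989 tested genes did. At an unadjusted p under 0.05 there were 11 (34.4%), against 1084 of all 11989 genes (9.04%). The median log2 change of the 32 was 0.00, as it was over all genes. Leaving out sgScramble replicate 1 gave 3 called members and leaving out sgNlrc5 replicate 1 gave 5, with the lone remaining library assumed to vary like the others.

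Several members that were lost in TDMa culture were abundant in TDM culture with either guide. Tables were normalised separately, so levels are set side by side only. Itpripl2 had 1897 and 1878 normalised counts with sgScramble and 1657 and 1918 with sgNlrc5. Echdc2 had 162 and 193 against 178 and 184, and Qsox1 had 314 and 329 against 282 and 279. Both are genes with at most 1 sgNlrc5 read in TDMa culture. Pkp2 was at 325 and 369 against 243 and 272, a log2 change of -0.43 ± 0.12 (limma adjusted p = 0.161). Lysmd2 went the other way, from 20.3 and 15.9 to 61.9 and 40.7, a log2 change of 1.43 ± 0.34 (adjusted p = 0.0772). Groups did not overlap for either gene, and neither passed the threshold. Over all 13143 genes listed in TDM culture, groups were apart with sgNlrc5 lower for 2538 and higher for 2517. Prkg2, the most abundant member in TDMa culture, had only 19.4 and 28.6 against 18 and 28.4.

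In TDMa tumours the members split. Of 46 listed, 33 had a mean of at least 10, and limma called 19 of these at an adjusted p of 0.05: 5 lower with sgNlrc5, where 19.7% of all 13385 tested genes were lower, and 14 higher, where 19.7% were higher. The 5 lower members are thus near the background share, and the 14 above it. The 14 hold 7 of the 8 members on the interferon lists. Of the 25 tested members off those lists, 7 were higher and 5 lower, with a median log2 change of 0.14. The median log2 change of the 33 was 0.26, against -0.01 over all tested genes. Whether the tumours came from the cultured cells sequenced here is not given in the labels. In bulk tumours, fewer cells of a type and less RNA per cell cannot be told apart.

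Npnt, which encodes the matrix protein nephronectin, showed the clearest loss in tumours. The sgScramble tumours had 161, 177, 165 and 187 normalised counts and the sgNlrc5 tumours 2.01, 3.22, 3.62 and 12.1. The groups were far apart, with little spread among the controls. The log2 change was -5.04 ± 0.39 (SE; limma adjusted p = 1.31e-05), or 33-fold between the means of 172 ± 11.8 and 5.22 ± 4.61 (SD, n = 4 and 4). In TDM culture Npnt had been at 199 and 196 against 186 and 156 (log2 change -0.21 ± 0.14; adjusted p = 0.699).

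Fam234b, a membrane protein gene, had 120, 122, 69.6 and 92.6 normalised counts in sgScramble tumours and 14.0, 9.65, 14.5 and 17.1 in sgNlrc5 tumours. The log2 change was -2.77 ± 0.26 (limma adjusted p = 3.06e-05). Pkp2 had 123, 12.4, 12.9 and 45.9 against 0, 0, 1.81 and 0, and so rested on 2 reads with sgNlrc5. Its log2 change was -4.64 ± 0.74 (adjusted p = 0.000658), and -2.81 with a pseudocount of 5. The sgScramble tumours were themselves far apart in Pkp2, with replicate 1 well above replicates 2 and 3. Ubqln2, a ubiquitin-binding shuttle to the proteasome, had 232, 78.3, 91.5 and 105 against 41.1, 27.9, 21.7 and 21.1 (log2 change -2.05 ± 0.33; adjusted p = 7e-04). Ndrg4 had 56.3, 76.4, 75.6 and 59.1 against 29.1, 30.03, 44.3 and 46.2, and changed least of the 5, from 66.8 ± 10.6 to 37.4 ± 9.11 (SD, n = 4 and 4; log2 change -0.84 ± 0.23; adjusted p = 0.0125).

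Another 13 listed members were too low to test. Rgs7bp had 31.0, 9.55, 14.9 and 21.2 normalised counts in sgScramble tumours and 0 in all 4 sgNlrc5 tumours, at least 25.2-fold lower. Nrk, an X-linked kinase gene singled out after its values were seen, had 37.9, 3.82, 0.994 and 20.3 against 0 in all 4. Its pooled reads were at least 20.2-fold lower, a bound that rests on sgScramble replicates 1 and 4. Replicates 2 and 3 were themselves near 0. Rgs7bp and Nrk were the 2 untested members whose groups did not overlap. Over the 46 listed members the groups were apart with sgNlrc5 lower for 7, where 17.3% of all listed genes were, and with sgNlrc5 higher for 11, where 17.5% were.

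**Figure D2:**
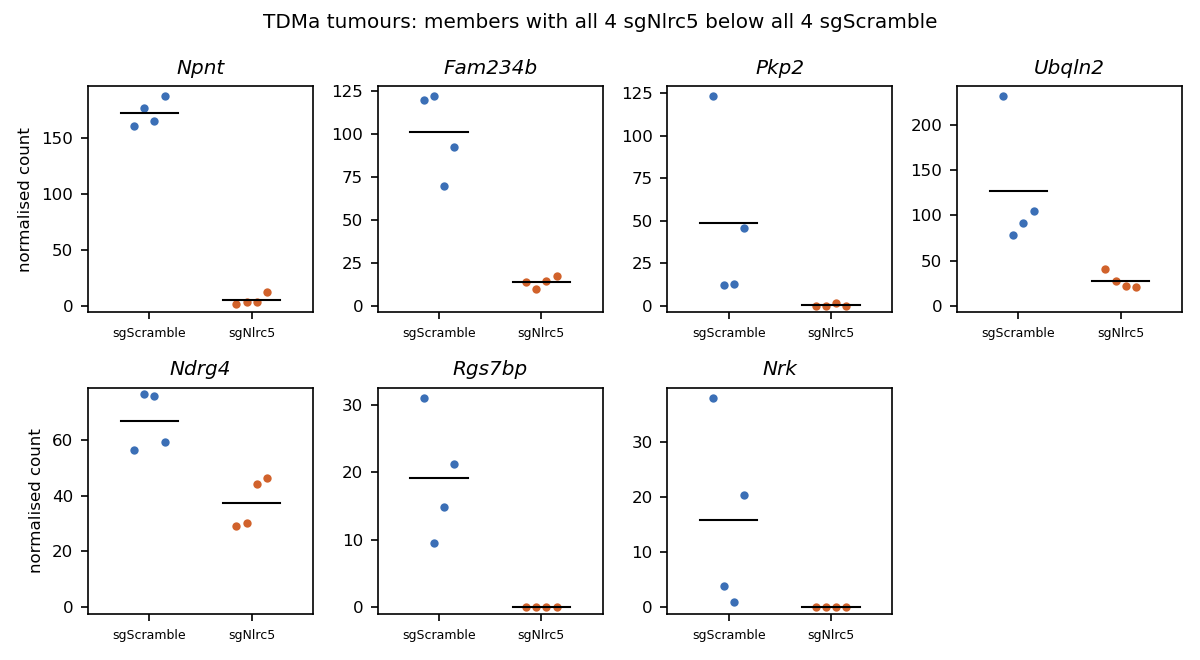
Normalised counts (linear axes from 0, 1 point per tumour, bar at the mean of 4) of the 7 members whose sgNlrc5 tumours all lie below the sgScramble tumours. Npnt controls sit between 161 and 187, while Pkp2 and Nrk controls are spread from near the sgNlrc5 values to a high replicate 1.

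The stretches upstream of the RefSeq start of Npnt, Nrk, Fam234b and Rgs7bp are shown because these genes were low with sgNlrc5 both in TDMa culture and in all 4 tumours. They were chosen after the values were seen. Each is the 200 bases before the start, 5′ to 3′ on the gene's strand, from RefSeq on GRCm38.p6, with CpG dinucleotides, the sites of DNA methylation, in capitals. They hold 19 CpG in Npnt (chr3:132950292-132950491, minus strand), 16 in Nrk (chrX:138914230-138914429, plus strand), 13 in Fam234b (chr6:135197787-135197986, plus strand) and 4 in Rgs7bp (chr13:105054931-105055130, minus strand). Npnt and Fam234b have 2 listed starts each, and the first is shown.
Npnt: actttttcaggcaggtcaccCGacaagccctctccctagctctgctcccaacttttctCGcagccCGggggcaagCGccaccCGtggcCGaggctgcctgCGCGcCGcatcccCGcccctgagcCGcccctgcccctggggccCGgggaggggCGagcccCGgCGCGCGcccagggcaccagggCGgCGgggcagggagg
Nrk: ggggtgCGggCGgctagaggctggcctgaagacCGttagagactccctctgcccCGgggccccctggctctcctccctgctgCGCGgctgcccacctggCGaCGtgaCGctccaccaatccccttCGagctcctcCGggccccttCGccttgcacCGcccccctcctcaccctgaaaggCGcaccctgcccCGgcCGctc
Fam234b: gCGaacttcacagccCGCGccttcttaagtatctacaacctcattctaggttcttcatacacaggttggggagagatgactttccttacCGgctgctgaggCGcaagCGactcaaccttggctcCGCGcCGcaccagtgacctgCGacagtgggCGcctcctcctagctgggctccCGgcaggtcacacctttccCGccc
Rgs7bp: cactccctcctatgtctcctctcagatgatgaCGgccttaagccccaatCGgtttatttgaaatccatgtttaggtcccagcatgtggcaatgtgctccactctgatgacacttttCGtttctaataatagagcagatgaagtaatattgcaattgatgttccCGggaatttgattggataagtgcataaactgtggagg
Ndrg4, also low in both, has 4 listed starts, whose 300-base windows hold 7, 31, 40 and 11 CpG. For Pkp2 and Ubqln2, low in both too, no window was found. Methylation was not measured in these data. A comparison of CpG content between members and other genes is void, since a window was found for 46 of the 64 members (71.9%), under the 80% such a comparison needs.

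The interferon members went the opposite way in tumours. By count, 7 of the 8 were higher with sgNlrc5 in tumours by limma, beside 19.7% of all 13385 tested genes. The 8th, Casp4, was not called (log2 change -0.31 ± 0.20; adjusted p = 0.24). Usp18 had 187, 117, 231 and 296 normalised counts in sgScramble tumours and 512, 461, 435 and 622 in sgNlrc5 tumours, with no overlap, a log2 change of 1.35 ± 0.23 (adjusted p = 0.000987). Apol9b had 523, 142, 360 and 763 against 2034, 1323, 1365 and 2084 (log2 change 2.13 ± 0.39; adjusted p = 0.0015). Igtp had 2418, 659, 2719 and 5280 against 10853, 9593, 5376 and 9973 (log2 change 1.98 ± 0.48; adjusted p = 0.00686). Rtp4 and Xaf1 were also apart, with log2 changes of 1.38 ± 0.36 (adjusted p = 0.00973) and 1.25 ± 0.19 (adjusted p = 0.000508).

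Dhx58 and Tgtp2 overlapped between groups, with log2 changes of 0.81 ± 0.24 and 1.42 ± 0.43 (adjusted p = 0.0185 and 0.0218). Both calls were lost without sgNlrc5 replicate 4 (log2 changes 0.63 and 1.26; adjusted p = 0.0534 and 0.0586) and with no intensity trend (adjusted p = 0.052 and 0.064). Without sgScramble replicate 2 the log2 change of Tgtp2 was 0.90 (adjusted p = 0.0195). Of the whole type I interferon list, 31 of 39 tested genes were higher and none lower, and of the 19 tested genes of the interferon gamma list 14 were higher and none lower. Over all tested genes 19.7% were higher and 19.7% lower. The summed count of the type I list ran from 19980 to 38084 over the sgScramble tumours and from 47107 to 62857 over the sgNlrc5 tumours.

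Markers of some immune cells were also higher with sgNlrc5 in these tumours, where 19.7% of all tested genes were called higher. All 11 T cell markers were higher with sgNlrc5 by limma, and their summed count ran from 116 to 177 in sgScramble tumours and from 409 to 1509 in sgNlrc5 tumours. All 14 macrophage and monocyte markers were higher, with sums of 4675 to 7789 and 16246 to 22486, and 4 of the 8 NK cell markers were. Of the NK list Ncr1, Klrb1c and Xcl1 were not listed. Of the listed markers, 1 of 5 for B and plasma cells, 1 of 2 for neutrophils and 0 of 7 for dendritic cells were called higher, and the dendritic cell sums were 178 to 224 and 226 to 264. No endothelial marker was called. The part of these cells in the interferon members' levels was not tested. In TDM culture, where 7 of the 8 interferon members were listed, their median log2 change was 0.44 and none was called.

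**Figure D3:**
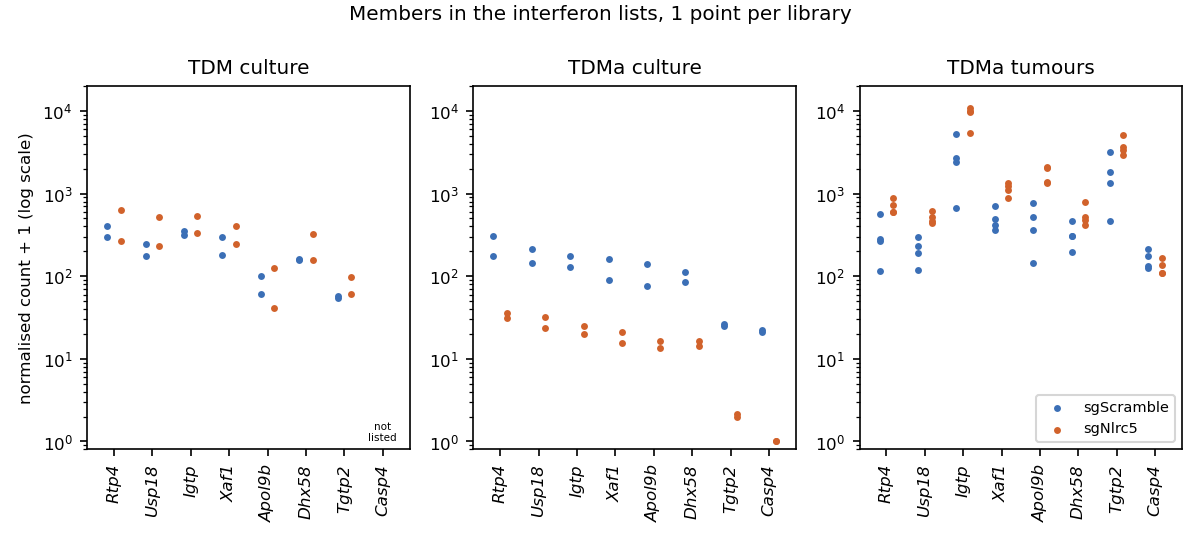
Normalised count plus 1 (log axis), 1 point per library, for the 8 members on the interferon lists in TDM culture, TDMa culture and TDMa tumours; blue is sgScramble, orange sgNlrc5. Orange lies below blue for all 8 genes in TDMa culture, and above or overlapping it for Rtp4, Usp18, Igtp, Xaf1, Apol9b, Dhx58 and Tgtp2 in tumours. Each table was normalised alone.

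Of the interferon members, 3 have an interferon-stimulated response element (ISRE) core, GAAANNGAA on either strand, upstream of their RefSeq start, and are shown for that reason. Each line is the 120 bases before the start, 5′ to 3′ on the gene's strand, from RefSeq on GRCm38.p6, with the matches in capitals: Igtp (chr11:58199436-58199555, plus strand), Tgtp2 (chr11:49064213-49064332, minus strand) and Apol9b (chr15:77728952-77729071, plus strand), where 2 matches overlap.
Igtp: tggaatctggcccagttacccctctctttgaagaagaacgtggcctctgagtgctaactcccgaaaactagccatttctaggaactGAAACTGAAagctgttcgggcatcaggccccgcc
Tgtp2: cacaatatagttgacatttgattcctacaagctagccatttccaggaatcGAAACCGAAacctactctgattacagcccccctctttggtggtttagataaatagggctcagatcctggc
Apol9b: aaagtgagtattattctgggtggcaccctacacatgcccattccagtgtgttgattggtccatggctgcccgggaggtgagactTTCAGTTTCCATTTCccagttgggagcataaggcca
The core begins 34 bases before the start in Igtp and 70 in Tgtp2. Apol9b has 2 listed starts, and the stretch before the first is shown. Its matches begin 36 and 30 bases before that start, and 85 and 79 before the second. The core lay in 6.80% of all 11401 windows of 300 bases, which reach from 250 bases before to 50 after a start. A window was found for 5 of the 8 interferon members (62.5%), too few to compare with that share. Those of Xaf1 and Casp4 held no such letters. Among members off the interferon lists the core lay in 3 of 55 windows, of Acsbg1, S100a16 and Gal3st2.

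The other 7 members that were higher in sgNlrc5 tumours were of mixed function. They were 7 of the 25 tested members off the interferon lists, beside 19.7% of all tested genes. Gpr176 had 52.9, 3.82, 22.9 and 20.3 normalised counts with sgScramble and 127, 118, 134 and 115 with sgNlrc5, a log2 change of 2.704 ± 0.545 (limma adjusted p = 0.00245). Fggy, a carbohydrate kinase, had 35.6, 51.6, 38.8 and 38.8 against 135, 180, 146 and 117 (log2 change 1.78 ± 0.19; adjusted p = 5.45e-05). Tlr2, the receptor for bacterial lipoproteins, also made by myeloid cells, had 41.4, 22.9, 29.8 and 30.9 against 88.2, 115, 79.6 and 79.4 (log2 change 1.52 ± 0.23; adjusted p = 0.000414). All 3 had at most 2 sgNlrc5 reads in TDMa culture.

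Rassf4, a Ras association domain protein, had a mean of 56.2 ± 22.6 with sgScramble and 199 ± 25.6 with sgNlrc5 (SD of normalised counts, n = 4 and 4; log2 change 1.88 ± 0.24, limma adjusted p = 0.000159). Ccn2, a matricellular protein and target of TGF-beta and YAP signalling, rose from 52.9 ± 14.5 to 153 ± 51.8 (log2 change 1.48 ± 0.27, adjusted p = 0.00137). Sorbs2, an actin-linked adaptor, rose from 8.18 ± 3.99 to 34.97 ± 16.2 (log2 change 1.94 ± 0.42, adjusted p = 0.0035). These 3 had no overlap between groups. Casp12, a caspase next to Casp4, rose from 269 ± 113 to 476 ± 84.6 with overlap (log2 change 0.91 ± 0.27, adjusted p = 0.0177), a call lost without sgNlrc5 replicate 4 (log2 change 0.80; adjusted p = 0.0506) and with no intensity trend (adjusted p = 0.0506). Fibroblast and pericyte markers had 2 called higher and 1 lower, and the part of stromal or immune cells in these levels was not tested.

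The 14 tested members that were not called in tumours included some of the most strongly lost in TDMa culture. Prkg2 had 32.2, 9.55, 4.97 and 18.5 normalised counts in sgScramble tumours and 0, 1.07, 14.5 and 3.01 in sgNlrc5 tumours. Its log2 change was -2.08 ± 0.82 (limma adjusted p = 0.0628), and sgNlrc5 replicate 3 lay within the sgScramble range. Itpripl2, 94.5-fold lower in TDMa culture, was present in all 4 sgNlrc5 tumours at 165, 126, 133 and 129 (log2 change 0.22 ± 0.47; adjusted p = 0.742). Qsox1, with 1 read in TDMa culture, had 12.03, 11.8, 20.8 and 18.1 in sgNlrc5 tumours (log2 change -0.02 ± 0.62; adjusted p = 0.986), and Gpm6b had 13.0, 15.01, 8.14 and 5.02 (log2 change -1.27 ± 0.72; adjusted p = 0.181). Jup and S100a16 were detected in every tumour, with overlapping groups and log2 changes of 0.26 ± 0.26 and -0.04 ± 0.30 (adjusted p = 0.451 and 0.919). Host cells contribute RNA to these libraries, and the part of host RNA in these levels was not tested.

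The remaining fixed lists hold few or no members, and in tumours they had called genes in both directions, beside 19.7% higher and 19.7% lower over all tested genes. Of cell junction and adhesion genes, with Pkp2 and Jup as members, 7 of 20 tested were higher and 3 lower. Of actin and contractile genes, with Tmod2, 6 of 19 were higher and 3 lower, and of neural and glial genes, with Gpm6b, 4 of 14 were higher and 4 lower. Of melanoma invasive state genes, with Ccn2, 6 of 20 were higher and 3 lower, and of secreted matrix genes, with Qsox1, 13 of 26 were higher and 1 lower. Among lists without a member, 10 of 20 NF-kB targets were higher and 2 lower, 11 of 20 melanocyte lineage genes were higher and 3 lower, and 2 of 6 germline genes were higher and 1 lower.

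The sgScramble tumours were unlike each other in many members. This pattern was noticed after the values were seen and is given as a description. Chic1, on chromosome X, had 55.2, 0.955, 0.994 and 16.8 normalised counts in sgScramble replicates 1 to 4. Echdc2 had 28.7, 1.91, 0.994 and 9.70, Gpm6b 93.1, 6.68, 9.94 and 52.0, and Itpripl2 394, 52.5, 70.6 and 130. Replicate 1 was the highest sgScramble tumour for 26 of the 38 listed members outside the interferon lists (68.4%), and for 30.5% of all 14933 listed genes. Replicates 1 and 4 both exceeded replicates 2 and 3 for 21 of the 38 (55.3%), against 19.8% of all genes. All 5 listed X-linked members had this order. Thus for Chic1, Echdc2 and Gpm6b the 2 lower sgScramble tumours lay within the sgNlrc5 range, and those groups overlapped.

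Of the 8 interferon members, 2, Apol9b and Tgtp2, had replicates 1 and 4 above 2 and 3. Replicate 4 was the highest sgScramble tumour for 7 of the 8. It also had the highest macrophage and monocyte sum of the sgScramble tumours, at 7789, and the highest erythroid sum, at 3364. The sgNlrc5 tumours differed: replicate 4 was the highest for 6 of the 8 but had the lowest macrophage and monocyte sum, at 16246. Among sgScramble tumours the fibroblast and pericyte sum was 215 in replicate 1 and 493, 440 and 355 in replicates 2 to 4. Their melanocyte lineage sum was 565550 in replicate 1 and 612357 to 637913 in the others. The part of these differences in the members' levels was not tested. Without sgScramble replicate 1, 20 members were called in tumours, 5 of them lower.

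**Figure D4:**
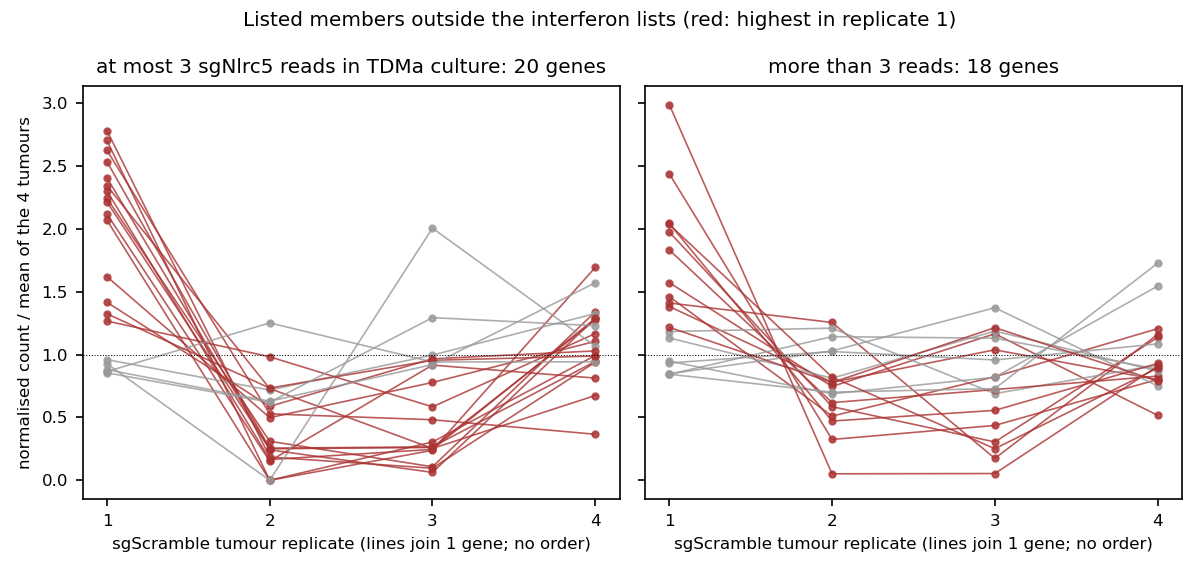
Normalised count of each listed member outside the interferon lists in the 4 sgScramble tumours, divided by its mean over them, for 20 genes with at most 3 and 18 genes with more sgNlrc5 reads in TDMa culture. Red lines, 26 in all, are genes highest in replicate 1; many of these fall below the mean in replicates 2 and 3.

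The change with the guide differed between tumours and TDM culture for 10 of 22 members tested, by a limma interaction term at an adjusted p of 0.05, where 31.0% of all 11579 genes differed. It was more negative in tumours for Npnt (difference in log2 change -4.24 ± 0.45; adjusted p = 6.78e-06), Pkp2 (-3.73 ± 0.73; adjusted p = 0.00113) and Fam234b (-2.52 ± 0.29; adjusted p = 1.28e-05). It was more positive for 7. Gpr176 had the largest difference of these 7 (4.09 ± 0.76; adjusted p = 0.000762), with log2 changes of 2.704 in tumours and -0.998 in TDM culture, where its values were 16.8 and 25.5 against 6.75 and 14.2. The remaining 6 were Apol9b, Igtp, Rtp4, Fggy, Ccn2 and Xaf1. Without TDM sgScramble replicate 1, or without TDM sgNlrc5 replicate 1, 6 members were called, and Rtp4, Xaf1, Igtp and Apol9b were not among them. The calls of Rtp4 and Xaf1 were each lost under 10 of 17 alternatives and that of Igtp under 6. For Rtp4 these included leaving out TDM sgScramble replicate 2, tumour sgScramble replicate 2 or 3, or tumour sgNlrc5 replicate 3 or 4. For Xaf1 they included leaving out tumour sgScramble replicate 1, 2 or 3, or tumour sgNlrc5 replicate 3 or 4, and for Igtp each TDM library in turn. The Rtp4 difference of 1.54 ± 0.54 became 0.82 without tumour sgScramble replicate 2 and 0.91 without TDM sgNlrc5 replicate 1, and the Igtp difference of 1.99 ± 0.63 became 1.01 without tumour sgScramble replicate 2. The Xaf1 difference of 0.96 ± 0.34 became 0.59 without TDM sgScramble replicate 1 and 0.60 without TDM sgNlrc5 replicate 1. With the replicate number as a block the adjusted p was 0.0807 for Rtp4 and 0.127 for Xaf1. The Pkp2 difference became -1.92 with a pseudocount of 5, still called (adjusted p = 0.017). Line, growth as a tumour and the cells of the host all differ between these settings and cannot be told apart.

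**Figure D5:**
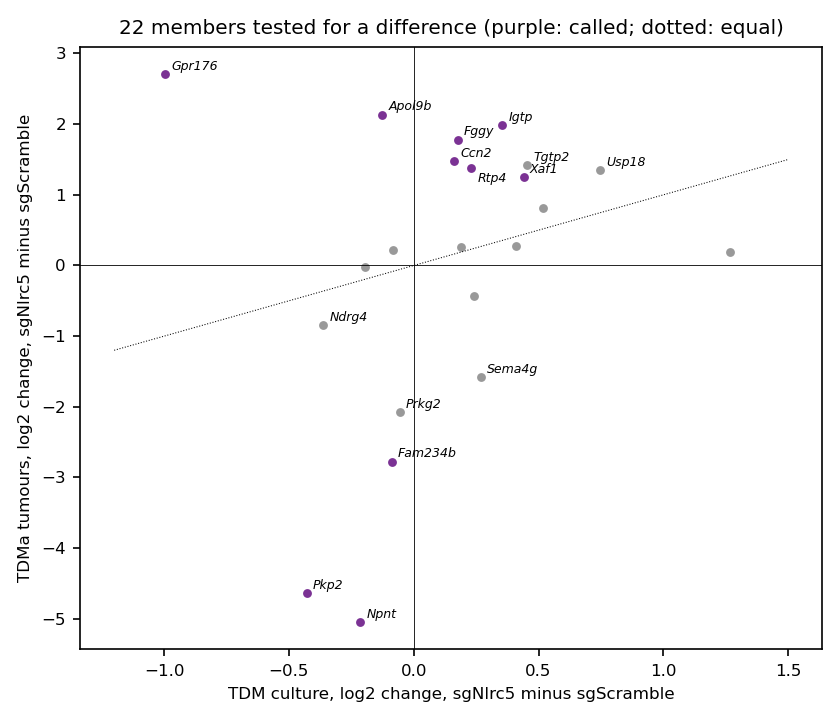
Log2 change with sgNlrc5 in TDM culture (horizontal) and in TDMa tumours (vertical) for the 22 members tested for a difference; purple points are the 10 called, and the dotted line marks equal changes. Npnt, Pkp2 and Fam234b lie far below the line, and the 7 others called lie above it.

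Of the 64 members, 28 were listed in all 3 tables and 12 only in TDMa culture. In tumours, 3 members met both thresholds of the rule again: Npnt, Pkp2 and Fam234b. Rgs7bp, Chic1, Nrk, Echdc2 and Podxl2 met the ratio there but not the minimum of 20. Their sgScramble means were 19.2, 18.5, 15.8, 10.3 and 9.78. The share of all genes that met both thresholds in tumours was not counted.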

How the data were processed

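RNA sequencing covered 16 libraries in 6 groups, taken from the sample titles. The deposited values are log2(normalised count + 1), per the labels, in 3 tables the authors normalised separately. DESeq2 1.36.0, STAR 2.7.10a and FastQC 0.12.0 are listed, without roles, in the submitters' processing notes, beside mm39 and GRCm39 as builds. For the counter, annotation and strand setting, nothing is given in the sources used here, although the kit marks strand, per the labels' protocols. Overlapping, antisense and near-identical genes are therefore uncertain.

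The log2 transform was first undone. All low values (100% within 0.1 of a whole read, up to 2000 reads) were whole multiples of 1 step per library, which gave the recovered reads. Counts of 0 were bounded by 3 reads per group, and ratios resting on 1 to 3 reads have 95% exact intervals. Neither covers more than counting error.

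The tables were fitted singly in R 4.3.3 with limma 3.58.1 on the log2 values (pseudocount 1), using an intensity trend, two-sided, over genes with a mean of at least 10, with Benjamini-Hochberg adjustment over all of them and a threshold of 0.05. Changes on this scale understate those of low genes. The difference between tumours and TDM culture was an interaction term with array weights, so it need not equal the difference of the separate changes. The fits were also run on simulated counts that gave all genes of a table the same spread beyond counting error. The real sgScramble tumours vary unevenly between genes, so that run is no check of single members. TDMa culture chose the members and was not tested. Chromosome and gene order came from GENCODE M21 (GRCm38) by gene identifier.

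Predicted genes were counted and left unnamed. Of the others, the genes named were the 15 most abundant with at most 3 sgNlrc5 reads, the 12 most abundant, those called in TDM culture or tumours, those beside the threshold and those on a fixed list. Further names were added after values were seen. The members and lists were chosen with earlier results of these data known. Alternatives were another pseudocount, filter, scaling, trend setting, voom on recovered reads, a replicate block and leaving out each library. Same-numbered libraries did not deviate together (r of -0.02 in TDM culture and -0.21 to 0.11 in tumours), so no pairing was used.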

Additional observations from a re-analysis of the deposited data

Results flagged for a closer look

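In sgScramble tumours, Acer2 replicate 1 stood far above the others, at 37.9 normalised counts against 5.29, 6.96 and 7.64. It was 1 of 54 groups of 4 tumours examined for such a library, and chance flags about 1 in 20.

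The change with sgNlrc5 differed between TDMa tumours and TDM culture, by the limma interaction term, for 10 members. On the log2 scale the differences, tumours minus TDM culture, were -4.24 for Npnt, -3.73 for Pkp2, -2.52 for Fam234b, 4.09 for Gpr176, 2.71 for Apol9b, 1.99 for Igtp, 1.54 for Rtp4, 1.41 for Fggy, 1.21 for Ccn2 and 0.96 for Xaf1. Those of Rtp4, Xaf1, Igtp and Apol9b lost the call under 10, 10, 6 and 2 of 17 alternatives. Without tumour sgScramble replicate 2 the differences of Igtp and Rtp4 were 1.01 and 0.82, and without TDM sgScramble replicate 1 that of Xaf1 was 0.59. Under the replicate block Rtp4 and Xaf1 were not called (adjusted p = 0.0807 and 0.127).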

How the results depend on the processing

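The number of members moved with the rule: 104 at a ratio of 1/4, 41 at 1/10, and 33 with a sgScramble mean of at least 50. Requiring each library to meet the ratio gave 51, and equal library sums gave 68. In TDM culture 0 members were called; a replicate block gave 2, and leaving out 1 library gave 0 to 5. In tumours the 19 called members ranged from 16 to 23 over all alternatives. The 5 lower became 8 with no filter on low values and 9 with quantile normalisation. With the replicate block 20 were called in tumours and 9 for the difference between tumours and TDM culture, which are within 1.5 times the counts without it, though Rtp4 and Xaf1 lost their call for the difference under the block. Leaving out 1 library gave 6 to 11 for that difference. Of 470 alternatives for single genes, 436 kept their call, 34 lost it and 0 reversed. The calls lost were those of Dhx58, Casp12 and Tgtp2 in tumours and of Rtp4, Xaf1, Igtp and Apol9b for the difference; the cause was not tested.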
